A study of Mus musculus with 7 samples.

Results

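The chromatin enzyme genes described here are those for the writers and erasers of histone methylation, histone acetylation and DNA methylation. They were chosen by symbol: the lysine demethylases (Kdm and a digit), the Kmt2 and Setd methyltransferases, the histone deacetylases (Hdac and a digit), the lysine acetyltransferases (Kat and a digit), Tet1 to Tet3, the Dnmt1 and Dnmt3 genes, and Ezh1 and Ezh2. Kdm5c, Kdm5d and Kdm6a, which lie on the X and Y chromosomes, were left out. The choice gave 59 of 24084 gene symbols: 15 Kdm, 5 Kmt2, 11 Setd, 2 Ezh, 11 Hdac, 7 Kat, 3 Tet and 5 Dnmt genes. Of these, 58 had enough counts to be tested. The exception, Dnmt3l, had 46 counts in skin 3 and none in any other library. One of the 59, Dnmt3aos, is annotated as a noncoding RNA antisense to Dnmt3a and encodes no enzyme.

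The RNA came from sorted regulatory T cells (Tregs), CD4-positive T cells that restrain immune responses and depend on Foxp3. Telogen skin, in the resting phase of the hair cycle, gave 4 libraries, and the lymph nodes that drain skin (SDLN) gave 3. All mice were 6 weeks old and carried the Foxp3-DTR allele, which the series names Foxp3-DTR/GFP and which puts the diphtheria toxin receptor and a green fluorescent protein under Foxp3 control. No other genotype was among the libraries. The series was made to compare the transcriptomes of Tregs from both sites. Nothing in the labels gives the sort gates or says how many mice a library pooled, so p-values measure the spread between these libraries, which may in part be technical. For skin 1, the title and source say skin but the tissue label says lymph node, and it was kept with skin by title and source. The markers that define the sorted cells were present in both sites: Foxp3 averaged 169 CPM in skin and 88.99 CPM in SDLN, where CPM stands for read counts scaled to a common library size. Il2ra averaged 1367 CPM in skin and 1663 CPM in SDLN, and neither passed the test used below. The further Treg markers Ctla4, at 3819.8 CPM in skin and 651 CPM in SDLN (adjusted p = 0.00501), and Ikzf2, at 2938 CPM in skin and 1319.5 CPM in SDLN (adjusted p = 0.0385), were higher in skin. In skin 1, Ctla4 was at 3814 CPM and Ikzf2 at 3798 CPM, against at most 802 and 1464 CPM in an SDLN library. Foxp3 in skin 1, at 107 CPM, was just above the highest SDLN library, at 102 CPM. Il2ra in skin 1, at 1696 CPM, lay within the SDLN range of 1541 to 1746 CPM.

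Histone lysine methylation marks a gene's state by position: methylation of lysine 4 of histone H3 (H3K4) goes with active promoters and enhancers, H3K36 methylation with transcribed gene bodies, and H3K27 and H3K9 methylation with silenced genes. Acetyltransferases and deacetylases add and remove the acetyl groups of active chromatin. Dnmt enzymes methylate cytosines in CpG dinucleotides and Tet enzymes oxidise that mark, which leads to its loss. In Tregs, stable Foxp3 expression rests on demethylated CpGs in an enhancer of the Foxp3 gene, and Ezh2, the catalytic subunit of Polycomb repressive complex 2, is known to be needed in activated Tregs.

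Promoter windows of members that passed the test are shown first, with their CpGs, the dinucleotide on which the Dnmt and Tet enzymes act. Kdm2b rose in skin. Hdac9 and Dnmt3aos fell, with 0 and 1 counts over all skin libraries, and passed the count filter through SDLN alone; of 271 tested genes with no skin count, 269 were called lower. The windows of so few genes are a description and show no relation between CpGs and direction. Windows run from 250 bases before to 50 after each RefSeq start (build GRCm38.p6, the same assembly as mm10), 5′ to 3′ on the gene's strand, with every CpG in capitals. Of 4 windows of Kdm2b, the outermost pair is shown, with all of Hdac9 and Dnmt3aos. No window of Kdm6b, which rose as well, was used here.
Kdm2b, chr5:122989050-122989349, minus strand: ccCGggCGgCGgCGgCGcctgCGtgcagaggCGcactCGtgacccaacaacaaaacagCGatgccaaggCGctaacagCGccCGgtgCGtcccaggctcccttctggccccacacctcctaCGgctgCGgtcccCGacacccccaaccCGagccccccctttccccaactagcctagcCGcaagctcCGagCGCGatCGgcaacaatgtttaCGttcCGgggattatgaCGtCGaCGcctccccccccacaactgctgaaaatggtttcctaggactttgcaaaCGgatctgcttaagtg
Kdm2b, chr5:122900301-122900600, minus strand: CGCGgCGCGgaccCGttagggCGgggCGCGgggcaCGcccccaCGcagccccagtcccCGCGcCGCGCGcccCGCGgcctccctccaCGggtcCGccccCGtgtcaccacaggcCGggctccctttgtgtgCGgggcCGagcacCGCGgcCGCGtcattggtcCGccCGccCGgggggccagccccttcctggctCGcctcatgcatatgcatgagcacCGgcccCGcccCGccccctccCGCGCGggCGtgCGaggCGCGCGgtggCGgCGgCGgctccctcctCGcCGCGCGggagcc
Hdac9, chr12:34917046-34917345, minus strand: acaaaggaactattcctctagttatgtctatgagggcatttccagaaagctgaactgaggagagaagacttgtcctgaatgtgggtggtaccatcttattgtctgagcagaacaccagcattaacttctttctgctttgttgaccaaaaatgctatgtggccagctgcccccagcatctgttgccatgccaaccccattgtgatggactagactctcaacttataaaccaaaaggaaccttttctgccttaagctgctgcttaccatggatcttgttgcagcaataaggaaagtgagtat
Hdac9, chr12:34528840-34529139, minus strand: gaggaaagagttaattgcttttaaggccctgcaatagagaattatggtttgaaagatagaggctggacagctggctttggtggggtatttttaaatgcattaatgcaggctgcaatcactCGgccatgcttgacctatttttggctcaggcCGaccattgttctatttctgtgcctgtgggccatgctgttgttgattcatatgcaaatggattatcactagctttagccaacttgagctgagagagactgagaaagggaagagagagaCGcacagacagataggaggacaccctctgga
Dnmt3aos, chr12:3862195-3862494, minus strand: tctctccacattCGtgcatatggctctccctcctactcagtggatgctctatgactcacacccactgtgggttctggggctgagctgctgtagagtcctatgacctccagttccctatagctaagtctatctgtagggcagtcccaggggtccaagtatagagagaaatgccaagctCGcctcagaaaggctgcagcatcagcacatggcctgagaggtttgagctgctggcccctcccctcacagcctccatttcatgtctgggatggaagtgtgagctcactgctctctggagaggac
The Kdm2b windows held 28 and 49 CpGs, those of Hdac9 0 and 3 and that of Dnmt3aos 2. The counts are per gene, so they do not say which start was used. Over the 70 windows that matched 47 of the member genes, the median was 22 CpGs, against 7 over all 32851 windows. Tested members whose every window held at most 5 CpGs numbered 3: Hdac9, Dnmt3aos and Setd5. Setd5, which encodes a SET domain protein, had 1 CpG in its only window. That window starts at position 113104685 of chromosome 6, inside the gene, which is annotated from 113077365 on the plus strand. No window covered the annotated start of Setd5, so CpGs there were not counted. Its fold change went the other way (log2 fold change 1.49), with every skin library above every SDLN library. Setd5 did not pass (adjusted p = 0.0981) but did under 4 of 20 alternatives. Among all tested genes with a window, 14.5% of the 689 with at most 5 CpGs in every window were called lower in skin, against 3.01% of the 7970 with more. Called higher were 4.35% of those with few CpGs and 3.14% of those with more. Genes with no skin count, of which 269 of 271 were called lower, were not left out of these shares. The share called lower thus differed between these groups. It was not split by expression level, and the part of CpGs in it was not tested. A search for the AP-1 sequence TGANTCA on both strands found 1 match in the Dnmt3aos window and 1 in the second Hdac9 window, and 7.81% of all windows hold one. The sequences TGACGTCA, CACGTG and CCGGAAG were in none of the windows shown, and 1.79%, 7.15% and 8.86% of all windows hold them. These are letter matches, not sites shown to be bound.

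**Figure D1:**
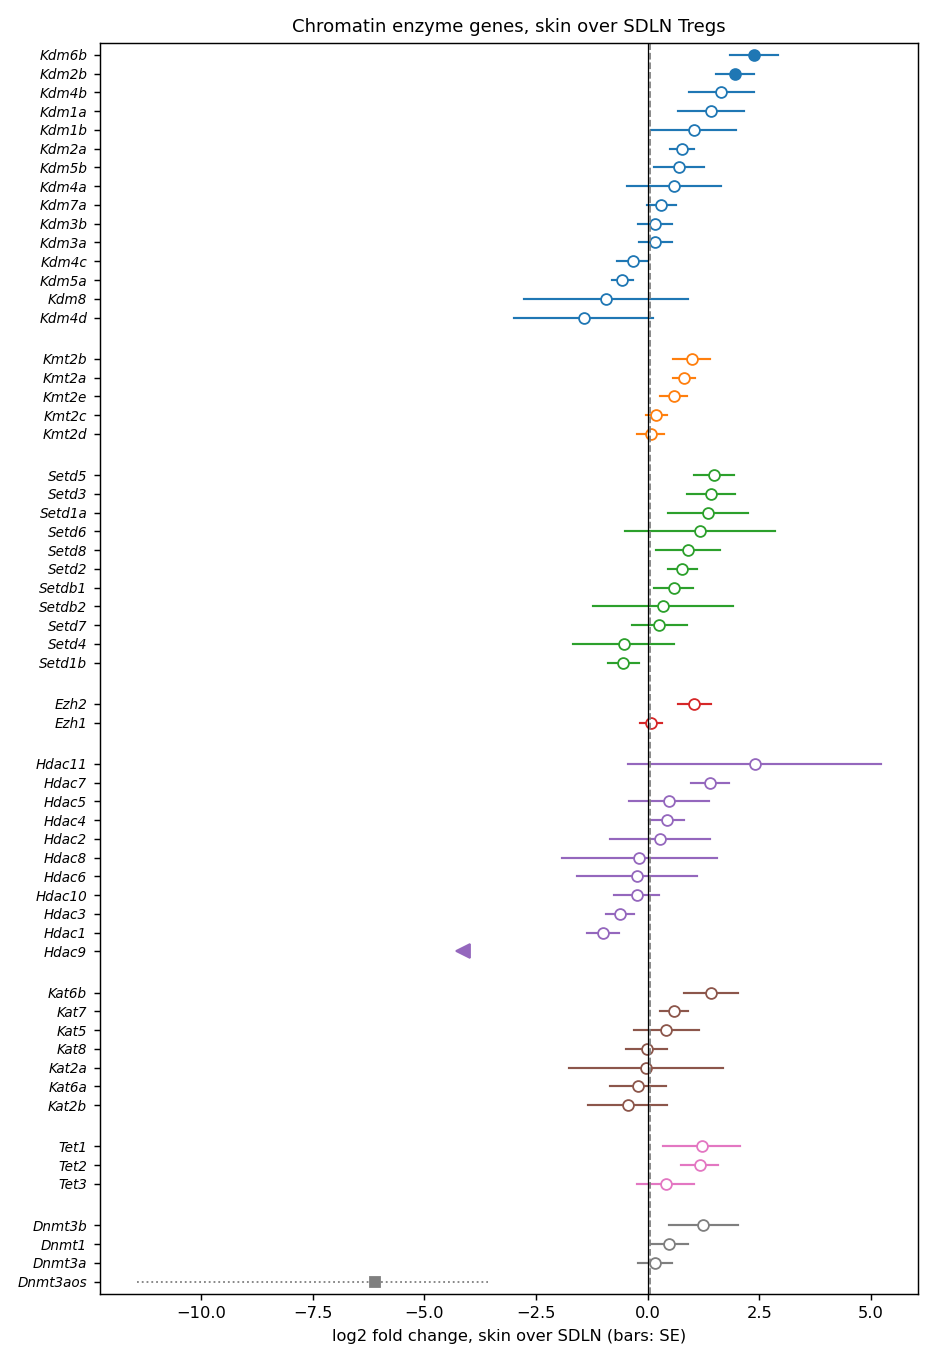
Fold changes of the 58 tested chromatin enzyme genes. The x axis is the log2 fold change, skin over SDLN, and each row is a gene, grouped by class and ordered by value. Circles are fitted values with their SE, filled where the adjusted p was under 0.05. The triangle puts Hdac9, with no skin count, at its bound, the square puts Dnmt3aos at its count ratio with a 95% counting interval, and the dashed line is the median of all tested genes (0.05). Of the 58 genes, 41 lie above 0, and those filled or drawn as triangle or square number 4.

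Of the 58 tested members, 4 passed: Kdm6b and Kdm2b rose in skin, and Hdac9 and Dnmt3aos fell. That is 6.90% of the members, against 7.24% of the 11376 genes tested (824), with 3.28% of all genes called higher and 3.96% called lower, so the share that passed was near that of the whole table and is not a result about these genes as a group. In direction they leaned upward: 41 of 58 fold changes were positive (70.7%), against 51.8% over all tested genes, and the median log2 fold change was 0.42, against 0.05 over all tested genes. The members' median was 0.42 also with Hdac9 and Dnmt3aos set at their bounds. The libraries of both sites did not overlap for 17 members (29.3%), against 26.6% of all tested genes. Every skin library lay above every SDLN library for 12 members (20.7%), against 10.1% of all tested genes, and below for 5 (8.62%), against 16.5%.

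The calls changed with the libraries and settings used. Without skin 1, the library with the conflicting label, Kdm2b and Setd5 were called higher and Hdac9, Dnmt3aos and Kdm8 lower. Without any 1 SDLN library, with no low-count filter or with the replicate number in the model, none of the 4 passed, while DESeq2 called 8 members higher and 1 lower and limma-voom 1 higher and 2 lower.

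Per length, the highest level in skin was that of Kmt2e, at 96.9 CPM per kb of exonic sequence, followed by Hdac7 at 68.0 and Hdac3 at 38.1 CPM per kb. In SDLN the order was Hdac1 at 66.0, Kmt2e at 64.8 and Hdac3 at 58.5 CPM per kb. Kmt2e and Hdac3 were among the top 3 of both sites, Hdac7 of skin alone and Hdac1 of SDLN alone.

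Lysine demethylases remove methyl groups from histone lysines. Of 15 tested Kdm genes, 2 rose, 0 fell and 13 did not pass; 11 fold changes were positive, and the class median log2 fold change was 0.59. At an unadjusted p under 0.05, 1 Kdm gene was lower, Kdm5a, whose values follow. DESeq2 called Kdm6b, Kdm2a and Kdm2b higher and plain limma-voom Kdm2b, and neither called a Kdm gene lower. Limma-voom with sample weights called Kdm6b and Kdm2b higher and Kdm8 lower.

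Kdm6b (JMJD3), which removes the silencing mark from H3K27, rose 5.20-fold. It lies on chromosome 11, from 69398508 to 69413675 on the minus strand. Its level was 269, 131, 232 and 81.1 CPM in skin 1 to 4, against 37.4, 45.7 and 19.8 CPM in SDLN 1 to 3. All 4 skin libraries were above all SDLN libraries, with skin 1 and skin 3 highest and skin 4 lowest (178 ± 87.1 CPM in skin (SD, n = 4) and 34.3 ± 13.2 CPM in SDLN (SD, n = 3); log2 fold change 2.38, SE 0.54, adjusted p = 0.0389). Kdm6b did not pass with skin 1 left out (adjusted p = 0.0515) or skin 3 (adjusted p = 0.0608), or with limma-voom (adjusted p = 0.0823), and its adjusted p over the alternatives was 2.79e-04 to 0.176.

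Kdm2b, an H3K36 demethylase that binds unmethylated CpG islands and brings a Polycomb repressive complex 1 to them, rose 3.88-fold. It lies on chromosome 5, from 122870665 to 122989823 on the minus strand. Its level was 138, 132, 72.01 and 142 CPM in skin 1 to 4, against 32.02, 40.3 and 21.1 CPM in SDLN 1 to 3. Skin 1, 2 and 4 lay close together, skin 3 stood apart below them, and no skin library overlapped SDLN (121 ± 32.9 CPM in skin (SD, n = 4) and 31.1 ± 9.65 CPM in SDLN (SD, n = 3); log2 fold change 1.96, SE 0.43, adjusted p = 0.0380). Kdm2b passed with limma-voom (adjusted p = 0.0437) and not without skin 4 (adjusted p = 0.0660); its adjusted p over the alternatives was 1.48e-04 to 0.293. Its near relative Kdm2a, which has the same CpG-binding domain and substrate, averaged 187 ± 27.2 CPM in skin (SD, n = 4) and 109.98 ± 17.1 CPM in SDLN (SD, n = 3) and did not pass (log2 fold change 0.76, SE 0.27, adjusted p = 0.163), though no skin library overlapped SDLN.

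Kdm5a, an H3K4 demethylase, was the most abundant of the class in CPM. Its level was 365, 299, 303 and 436 CPM in skin 1 to 4, against 575, 560.1 and 423 CPM in SDLN 1 to 3. The sites overlapped through skin 4 and SDLN 3, and the lower skin values did not pass (log2 fold change -0.57, SE 0.24, adjusted p = 0.260). Kdm5b, of the same family, had a log2 fold change of 0.71 (adjusted p = 0.613), so the fitted values of the pair had opposite signs and neither passed.

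The H3K4 demethylases of the flavin-dependent type, Kdm1a and Kdm1b, each had 1 skin library at an extreme. Kdm1a was at 31.9, 247, 40.3 and 89.4 CPM in skin 1 to 4, against 37.6, 36.5 and 41.2 CPM in SDLN 1 to 3, with skin 2 above all. Kdm1b was at 85.1, 162, 85.9 and 3.92 CPM in skin 1 to 4, against 43.7, 50.1 and 29.6 CPM in SDLN 1 to 3, with skin 4 below all. Neither passed (adjusted p = 0.386 for Kdm1a and 0.674 for Kdm1b). Of the H3K9 demethylases, Kdm3a and Kdm3b had log2 fold changes of 0.17 and 0.17, and their libraries overlapped. The Kdm4 family acts on H3K9, and some of its members also on H3K36. Its fold changes on the log2 scale were 1.65 for Kdm4b, 0.59 for Kdm4a, -0.34 for Kdm4c and -1.43 for Kdm4d, and none passed. Kdm4b had no overlap between the sites, with 206 CPM in skin 2 and the other skin libraries at 37.2 to 51.5 CPM, above 25.6 to 27.4 CPM in SDLN. Kdm7a (log2 fold change 0.31, adjusted p = 0.728) and Kdm8 (log2 fold change -0.93, adjusted p = 0.877) make up the rest of the class.

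**Figure D2:**
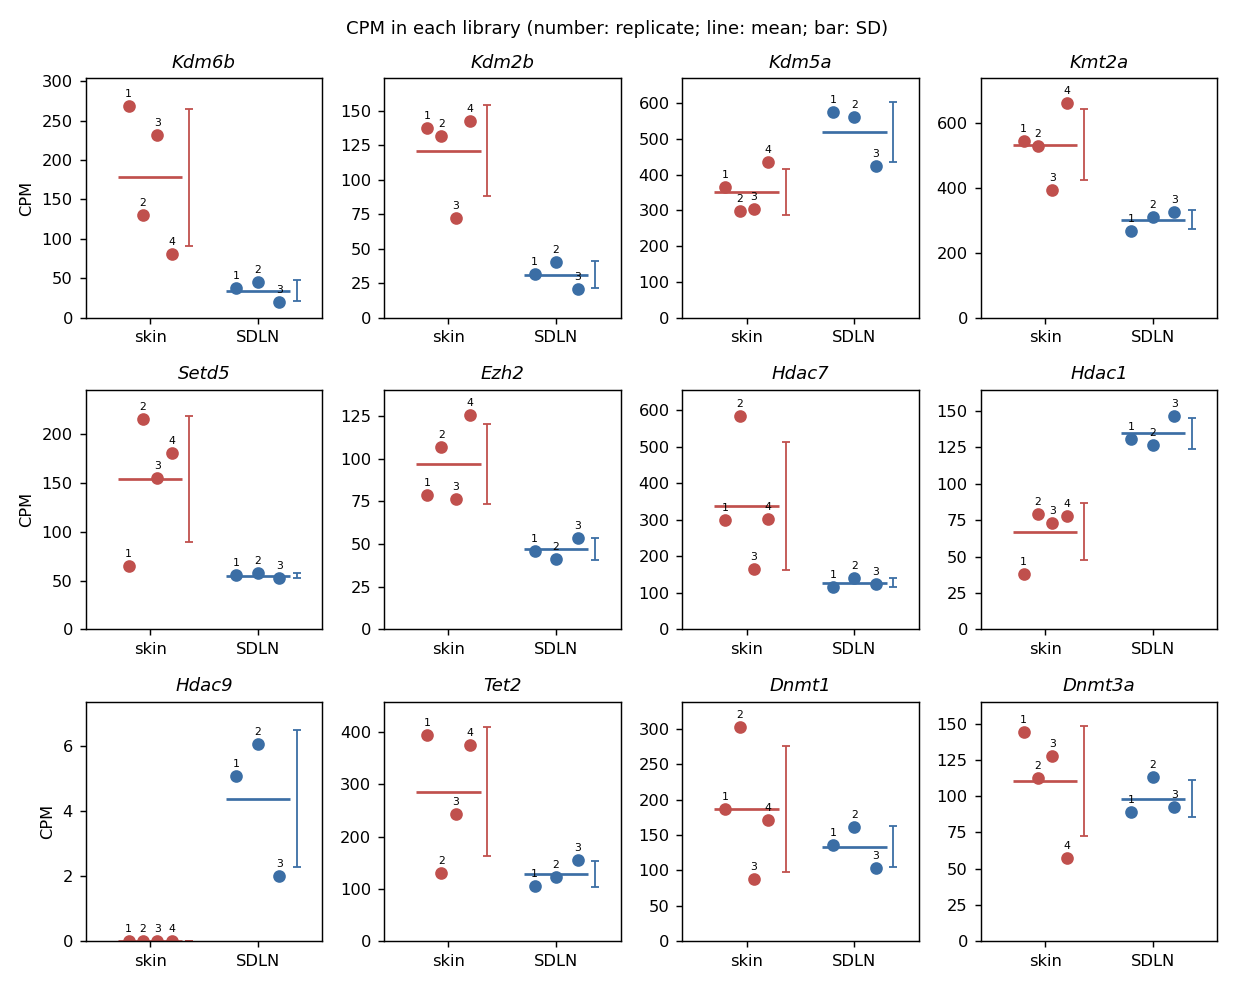
Levels in each library of 12 members. The y axes give CPM and start at 0, points are libraries numbered by replicate with skin on the left, and lines and bars are means and SDs. Kdm6b, Kdm2b, Ezh2, Hdac7, Kmt2a and Setd5 have every skin point above every SDLN point, Hdac1 and Hdac9 every skin point below, and Dnmt1 and Dnmt3a overlap.

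Kmt2a to Kmt2d encode large H3K4 methyltransferases of the COMPASS complexes, and Kmt2e is grouped with them by name. None of the 5 Kmt2 genes passed, all 5 fold changes were positive, and the class median log2 fold change was 0.58. Kmt2a (MLL1) had the smallest p of the class. It was at 545, 529.7, 394 and 662 CPM in skin 1 to 4, against 268, 311 and 325 CPM in SDLN 1 to 3. All skin libraries were above all SDLN libraries, but the difference did not pass (log2 fold change 0.82, SE 0.25, adjusted p = 0.103; adjusted p 0.0203 to 0.454 over the alternatives, passing with DESeq2 and without skin 3). Kmt2e (MLL5), a family member for which little methyltransferase activity is known, was the most abundant in CPM, at 773, 1018, 525 and 523 CPM in skin 1 to 4, against 440.4, 449 and 533 CPM in SDLN 1 to 3. Skin 1 and skin 2 were above all SDLN libraries and skin 3 and skin 4 below SDLN 3 (log2 fold change 0.58, SE 0.29, adjusted p = 0.365). Kmt2d, an enhancer H3K4 methyltransferase, differed little in its mean, 221 ± 46.9 CPM in skin (SD, n = 4) and 211 ± 62.3 CPM in SDLN (SD, n = 3) (log2 fold change 0.07, SE 0.30, adjusted p = 0.955). Kmt2b had a log2 fold change of 0.99 and Kmt2c one of 0.20 (adjusted p = 0.257 and 0.776). Counts of Kmt2 genes called were 0 in edgeR in either direction, 2 higher and 0 lower at an unadjusted p under 0.05 (Kmt2a and Kmt2b), 1 higher with DESeq2 (Kmt2a) and 0 with limma-voom.

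Setd genes encode SET domain proteins of several substrates. None of the 11 passed, 9 fold changes were positive, and the class median log2 fold change was 0.78. At an unadjusted p under 0.05, 3 members were higher (Setd5, Setd3 and Setd2). DESeq2 called 2 higher (Setd3 and Setd5) and plain limma-voom 0. With sample weights, limma-voom called Setd3 and Setd5 higher, and with a variance per group Setd5. Setd5 had the smallest p. It was at 64.8, 216, 155 and 181 CPM in skin 1 to 4, against 55.3, 57.5 and 52.3 CPM in SDLN 1 to 3. Skin 1 was close to SDLN and the other skin libraries well above it, with no overlap (log2 fold change 1.49, SE 0.44, adjusted p = 0.0981; adjusted p 0.0109 to 0.369 over the alternatives). Setd2, the enzyme for H3K36 trimethylation, was at 258, 256, 127 and 216 CPM in skin 1 to 4, against 141, 112 and 121 CPM in SDLN 1 to 3. Skin 3 lay within the SDLN range and the other skin libraries above it (log2 fold change 0.78, SE 0.32, adjusted p = 0.239). Setd3, known as an actin histidine methyltransferase, was tight within both sites, at 45.8 ± 7.53 CPM in skin (SD, n = 4) and 17.1 ± 1.45 CPM in SDLN (SD, n = 3), and did not pass (log2 fold change 1.42, SE 0.53, adjusted p = 0.188).

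The H3K4 methyltransferases Setd1a and Setd1b had fitted values of opposite sign. Setd1a was at 44.2, 64.8, 3.97 and 62.6 CPM in skin 1 to 4, against 17.2, 17.2 and 17.4 CPM in SDLN 1 to 3, so that skin 3 alone lay below SDLN, and Setd1b averaged 52.6 ± 3.33 CPM in skin (SD, n = 4) and 76.5 ± 13.97 CPM in SDLN (SD, n = 3), with every skin library below SDLN (adjusted p = 0.523 and 0.515). The H3K9 methyltransferase Setdb1 averaged 107 ± 48.3 CPM in skin (SD, n = 4) and 71.1 ± 12.8 CPM in SDLN (SD, n = 3) (adjusted p = 0.575). Setdb2, its relative, was at 153, 0.485, 1.15 and 30.7 CPM in skin 1 to 4, against 38.7, 40.7 and 29.7 CPM in SDLN 1 to 3, a range of 0.485 to 153 CPM within skin (adjusted p = 0.954). Setd8, the H4K20 monomethyltransferase now named Kmt5a, Setd6, Setd7 and Setd4 had log2 fold changes of 0.91, 1.17, 0.26 and -0.53 and overlapped between the sites.

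Ezh1 and Ezh2 are the alternative catalytic subunits of Polycomb repressive complex 2, which methylates H3K27, the mark that Kdm6b removes. Ezh2 was at 78.5, 107, 76.6 and 126 CPM in skin 1 to 4, against 45.99, 41.2 and 53.7 CPM in SDLN 1 to 3. The sites did not overlap, but the 2.06-fold difference did not pass (log2 fold change 1.04, SE 0.37, adjusted p = 0.165; adjusted p 0.0297 to 0.564 over the alternatives, passing with DESeq2 and with sample weights in limma-voom). Ezh1 averaged 195 ± 19.3 CPM in skin (SD, n = 4) and 186 ± 37.5 CPM in SDLN (SD, n = 3) (log2 fold change 0.07, SE 0.26, adjusted p = 0.937). Per kb of exonic sequence, the ratio of Ezh2 to Ezh1 was 0.799, 1.25, 0.959 and 1.30 in skin 1 to 4, against 0.465, 0.448 and 0.812 in SDLN 1 to 3. Skin 1 was thus below SDLN 3, and the ratios overlapped. The ratio of Kdm6b to Ezh2 per kb was 1.44, 0.517, 1.28 and 0.272 in skin 1 to 4, against 0.342, 0.467 and 0.155 in SDLN 1 to 3, with skin 4 inside the SDLN range.

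Histone deacetylases fall into class I (Hdac1, 2, 3 and 8), the nuclear enzymes of corepressor complexes; class IIa (Hdac4, 5, 7 and 9), which shuttle between cytoplasm and nucleus on calcium and kinase signals and have weak activity of their own; class IIb (Hdac6 and 10); and class IV (Hdac11). Of 11 tested Hdac genes, 0 rose, 1 fell and 10 did not pass, and the class median log2 fold change was -0.19, which became 0.23 without skin 1. At an unadjusted p under 0.05, 1 Hdac gene was higher (Hdac7) and 2 lower (Hdac9 and Hdac1). DESeq2 called Hdac7 higher, as did limma-voom with sample weights and with a variance per group, and plain limma-voom called 0 higher.

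Hdac9, a class IIa enzyme whose loss in mice is known to raise Treg numbers and function, had no count in any skin library. It lies on chromosome 12, from 34047580 to 34917095 on the minus strand. It was at 5.09, 6.08 and 2.01 CPM in SDLN 1 to 3, 189 counts in all. With 3 counts taken as the floor in each skin library, it was at least 17.6-fold lower in skin (adjusted p = 0.0390, and 0.00266 to 0.358 over the alternatives). This bound covers counting error only, not the spread between skin libraries. As stated above, nearly all tested genes with no skin count were called lower, so a gene of this kind could hardly be tested without being called.

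Hdac7, another class IIa enzyme, prominent in developing T cells, was the most abundant of the class in CPM, at 299, 584, 166 and 301 CPM in skin 1 to 4, against 116, 142 and 125 CPM in SDLN 1 to 3. Every skin library was above every SDLN library, with skin 2 highest and skin 3 nearest to SDLN, and the 2.64-fold difference did not pass (log2 fold change 1.40, SE 0.42, adjusted p = 0.105; adjusted p 0.0213 to 0.376 over the alternatives). Hdac4 and Hdac5 had log2 fold changes of 0.42 and 0.48 and overlapped. Summed over the class IIa genes, the level was 409, 698, 304 and 370.2 CPM in skin 1 to 4, against 204, 244 and 188 CPM in SDLN 1 to 3, and Hdac7 made up most of the skin sum.

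Of the 4 class I genes, 3 had negative fold changes and 0 passed. Hdac1 was at 38.02, 79.4, 72.8 and 77.9 CPM in skin 1 to 4, against 130.4, 126 and 147 CPM in SDLN 1 to 3. Every skin library was below every SDLN library, and the difference did not pass (log2 fold change -1.01, SE 0.35, adjusted p = 0.163). Hdac3, the catalytic subunit of NCoR and SMRT corepressors and known to be needed for Treg function in mice, was at 91.5, 76.5, 86.6 and 55.4 CPM in skin 1 to 4, against 109, 136 and 112 CPM in SDLN 1 to 3, again with no overlap (log2 fold change -0.62, SE 0.32, adjusted p = 0.373). Summed over class I, the level was 130.3, 173, 205 and 242 CPM in skin 1 to 4, against 272, 299.9 and 311 CPM in SDLN 1 to 3. The sums of class I and class IIa thus separated the sites in opposite directions; they were looked at after the values were seen and carry no test. Hdac2 and Hdac8 overlapped, at 0.828 to 50.4 CPM in skin and 17.6 to 25.7 CPM in SDLN for Hdac2 and 0 to 58.5 CPM in skin and 15.1 to 27.03 CPM in SDLN for Hdac8.

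Hdac6, a mostly cytoplasmic class IIb enzyme that acts on tubulin, was at 63.6, 54.6, 21.1 and 0.0713 CPM in skin 1 to 4, against 38.9, 52.5 and 32.4 CPM in SDLN 1 to 3. Skin 1 and 2 were above the SDLN mean, and skin 4, with 1 count, was nearly empty (log2 fold change -0.24, SE 1.34, adjusted p = 0.964). Hdac10 averaged 84.4 ± 41.9 CPM in skin (SD, n = 4) and 100.2 ± 13.9 CPM in SDLN (SD, n = 3) (adjusted p = 0.883). Hdac11 had counts in a single skin library, at 41.2 CPM in skin 2, against 0.746 to 2.62 CPM in SDLN (log2 fold change 2.40, adjusted p = 0.766). Skin 2 alone set that sign: without it, Hdac11 had no skin count and was called lower.

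**Figure D3:**
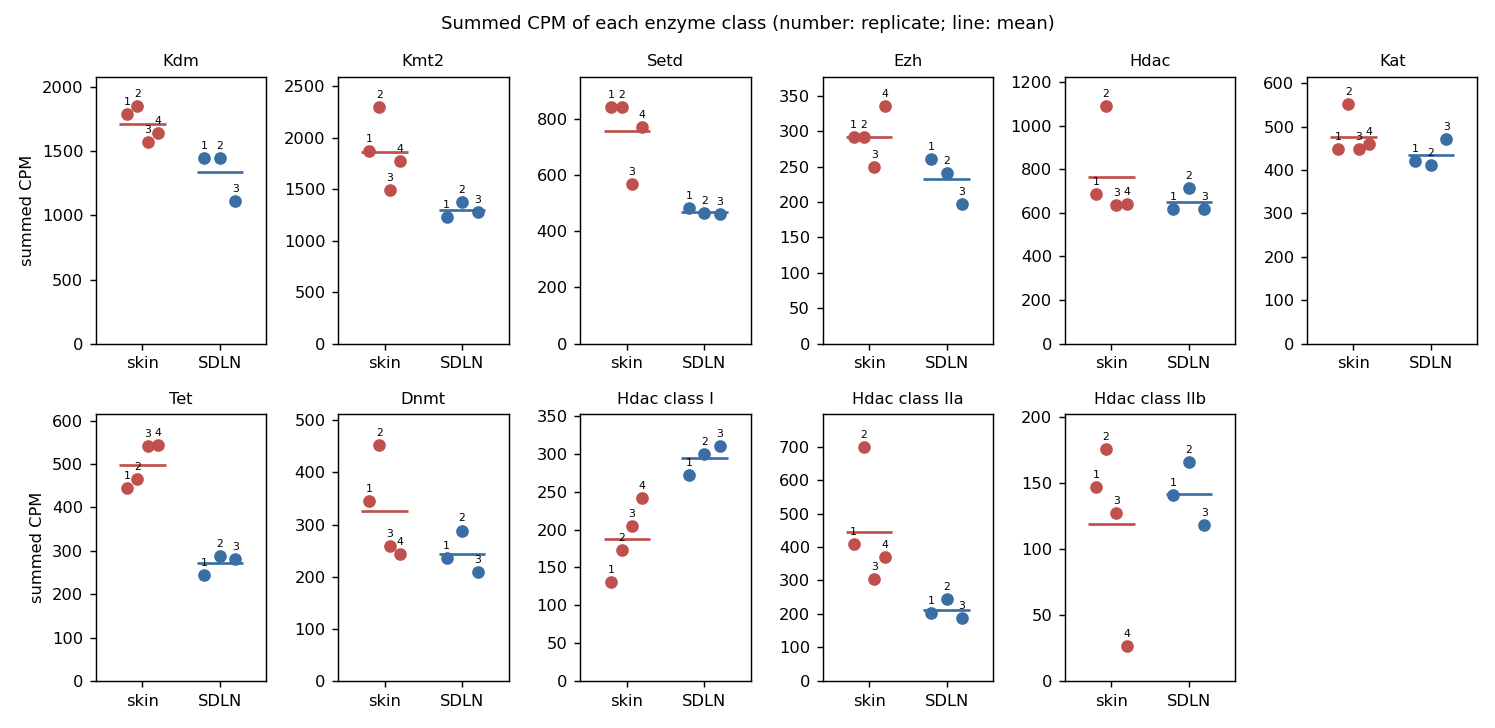
Summed CPM of each enzyme class in each library, with the deacetylases also split by class. The y axes start at 0, points are libraries numbered by replicate with skin on the left, and lines are means. Kdm, Kmt2, Setd, Tet and Hdac class IIa sums are higher in every skin library than in any SDLN library, the Hdac class I sum is lower, and Ezh, Hdac, Kat, Dnmt and Hdac class IIb sums overlap.

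Lysine acetyltransferases of the GNAT family (Kat2a and Kat2b) and the MYST family (Kat5 to Kat8) had 0 members that rose and 0 that fell among 7, and their median log2 fold change was -0.02, with -0.20 to 0.38 over the alternatives. At an unadjusted p under 0.05, 1 was higher (Kat6b) and 0 lower, and DESeq2 and limma-voom called 0. Kat6b, a MYST enzyme that acetylates H3, was at 51.3, 97.3, 29.8 and 39.2 CPM in skin 1 to 4, against 23.2, 22.6 and 15.1 CPM in SDLN 1 to 3. The sites did not overlap, with skin 2 highest, and the difference did not pass (log2 fold change 1.42, SE 0.60, adjusted p = 0.258; adjusted p 0.0904 to 0.647 over the alternatives). Kat6a, its relative and the most abundant of the class in CPM, was at 146, 24.03, 139.7 and 194 CPM in skin 1 to 4, against 123, 107 and 210.1 CPM in SDLN 1 to 3, and skin 2, highest for Kat6b, was lowest for Kat6a (log2 fold change -0.22, SE 0.62, adjusted p = 0.917). Kat5 (TIP60), known to acetylate Foxp3, was at 23.5, 176, 34.3 and 45.6 CPM in skin 1 to 4, against 57.5, 49.8 and 49.3 CPM in SDLN 1 to 3. Skin 2 alone was above SDLN and the other skin libraries below, and the fitted value turned negative without skin 2, with limma-voom and with the replicate block (log2 fold change 0.42, SE 0.72, adjusted p = 0.855). Kat7 had no overlap, at 97.8 ± 5.34 CPM in skin (SD, n = 4) and 65.3 ± 11.8 CPM in SDLN (SD, n = 3) (adjusted p = 0.399), and Kat8 averaged 47.8 ± 15.1 CPM in skin (SD, n = 4) and 48.3 ± 5.80 CPM in SDLN (SD, n = 3). Kat2a was at 80.1, 3.64, 8.20 and 0 CPM in skin 1 to 4, against 23.00, 23.8 and 23.5 CPM in SDLN 1 to 3, and Kat2b at 3.13, 90.04, 92.2 and 46.6 CPM in skin 1 to 4, against 82.01, 78.2 and 76.8 CPM in SDLN 1 to 3. Each had 1 skin library nearly empty, skin 4 for Kat2a and skin 1 for Kat2b, while the SDLN libraries lay within 23.0 to 23.8 CPM for Kat2a and 76.8 to 82.01 CPM for Kat2b.

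None of the 3 Tet genes passed, and all 3 fold changes were positive, with a median log2 fold change of 1.16. At an unadjusted p under 0.05, 1 was higher (Tet2) and 0 lower, and DESeq2 and plain limma-voom called 0. Limma-voom with sample weights called Tet2 higher, as did edgeR without skin 2. Tet2, known for its part in keeping Foxp3 demethylated together with Tet3, was at 395, 131, 244 and 375 CPM in skin 1 to 4, against 105, 123 and 155 CPM in SDLN 1 to 3. Skin 2 lay within the SDLN range and the other skin libraries above it (log2 fold change 1.16, SE 0.41, adjusted p = 0.169; adjusted p 0.0302 to 0.537 over the alternatives). Tet3 was at 31.1, 314, 152 and 141 CPM in skin 1 to 4, against 118, 137 and 105 CPM in SDLN 1 to 3, and Tet1 at 17.5, 21.2, 146 and 27.4 CPM in skin 1 to 4, against 21.3, 27.6 and 19.9 CPM in SDLN 1 to 3 (adjusted p = 0.833 and 0.561). The skin libraries differed in which Tet gene was high: Tet2 led in skin 1, 3 and 4 and Tet3 in skin 2, and Tet1 was high in skin 3 alone. Their sum varied less, at 443, 466, 542 and 543 CPM in skin 1 to 4, against 245, 287 and 279.9 CPM in SDLN 1 to 3, with every skin library above every SDLN library.

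Dnmt1 copies DNA methylation onto new strands after replication, and Dnmt3a and Dnmt3b set it anew. None of the enzyme genes passed: of 4 tested Dnmt symbols, 0 rose and 1, the noncoding Dnmt3aos, fell. With limma-voom, DESeq2 or an unadjusted p under 0.05, the number of higher Dnmt symbols was 0 as well. Dnmt1 was at 187, 303, 87.2 and 171 CPM in skin 1 to 4, against 136, 161 and 103 CPM in SDLN 1 to 3, with SDLN inside the skin range (log2 fold change 0.49, SE 0.43, adjusted p = 0.651). Dnmt3a was at 145, 113, 128 and 56.98 CPM in skin 1 to 4, against 89.3, 113 and 92.7 CPM in SDLN 1 to 3, with skin 4 lowest and skin 1 highest (log2 fold change 0.17, SE 0.38, adjusted p = 0.896). Dnmt3b was low in both sites, at 26.9 ± 13.6 CPM in skin (SD, n = 4) and 11.3 ± 1.87 CPM in SDLN (SD, n = 3), and although no skin library overlapped SDLN the difference did not pass (log2 fold change 1.25, SE 0.78, adjusted p = 0.484). The ratio of the Tet sum to the Dnmt sum was 1.28, 1.03, 2.09 and 2.23 in skin 1 to 4, against 1.04, 0.996 and 1.35 in SDLN 1 to 3, and the sites overlapped.

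Dnmt3aos (chromosome 12, 3859293 to 3862244 on the minus strand) lies within Dnmt3a on the other strand. It had 1 count in skin 1 and none in skin 2, 3 and 4, against 1.42, 1.86 and 0.927 CPM in SDLN 1 to 3, or 60 counts in all. The ratio, SDLN over skin, was 69.1, and counting error alone allows 11.9 to 2775 at 95% confidence (adjusted p = 0.0457, and 0.0104 to 0.358 over the alternatives; it did not pass with DESeq2, at an adjusted p of 0.241). The labels do not state whether counting used strand, so its reads and those of Dnmt3a cannot be told apart with certainty, and it too passed the count filter through SDLN alone.

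**Figure D4:**
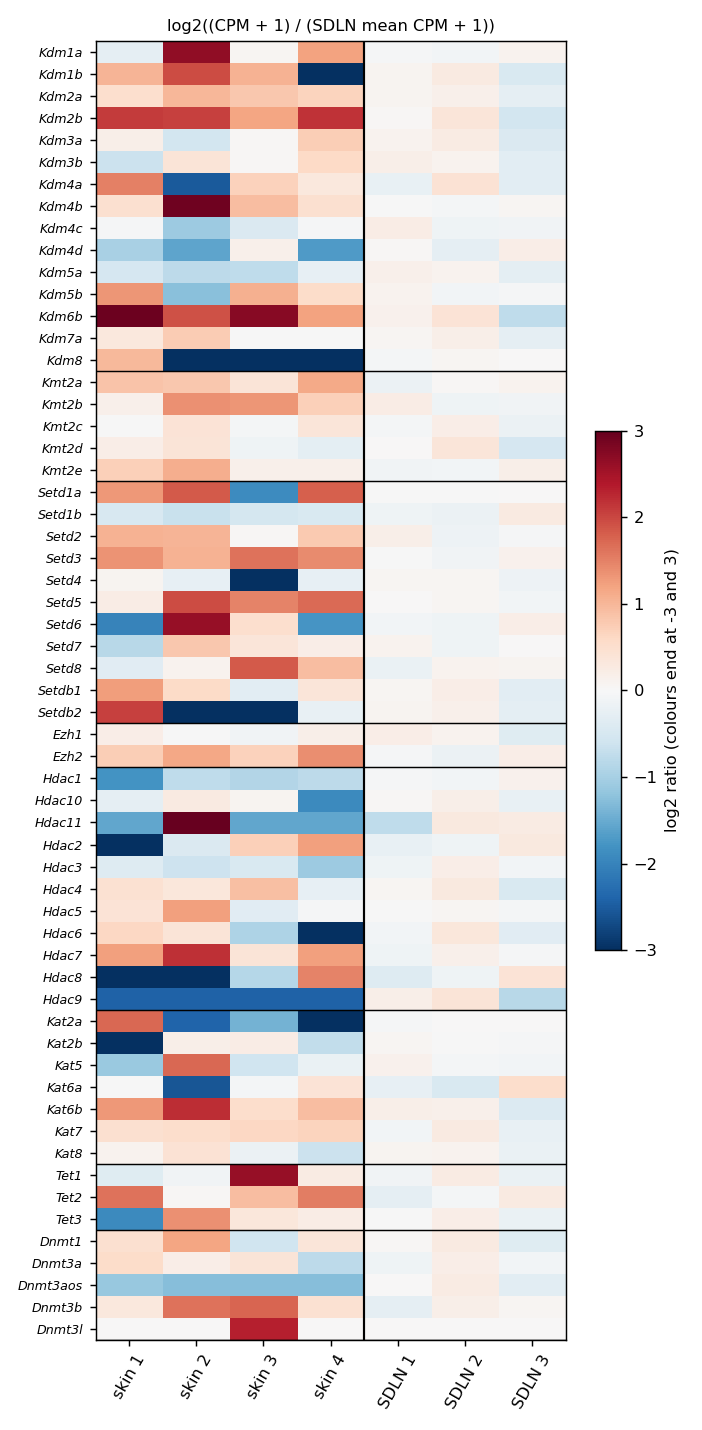
Level of all 59 members in each library relative to the SDLN mean. Rows are genes in class order, columns are libraries with skin on the left, and colour is the log2 of CPM + 1 over the SDLN mean CPM + 1, ending at -3 and 3. Rows such as Kdm2b, Setd3 and Ezh2 have one colour over all skin libraries, while Setdb2, Kat2a, Hdac8 and Kdm1a change sign between them.

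The 4 skin libraries differed from each other more than the 3 SDLN libraries did. The coefficient of variation was larger in skin for 51 of the 57 tested members with a skin count (89.5%), as it was for 95.1% of all tested genes. Its median over members was 0.489 in skin and 0.153 in SDLN, against 0.750 in skin and 0.187 in SDLN over all tested genes. In skin, the median over all tested genes fell with level, from 1.42 in the lowest quartile of mean CPM to 0.422 in the highest. Of the members, 25 were in the highest quartile and 5 in the lowest. From the lowest to the highest quartile, members were at 1.76, 0.704, 0.550 and 0.342 in skin, against 1.42, 0.929, 0.645 and 0.422. Highest and lowest skin library were under 2-fold apart for 14 members, among them Ezh1, Ezh2, Kat7, Kdm2a, Kdm2b, Kdm5a, Setd1b, Setd3 and 4 of the Kmt2 genes; in SDLN this held for 54 of 58. Kat7 was the steadiest in skin, at 92.1 to 104 CPM.

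For 12 members (20.7%) the lowest skin library held less than 0.1 of the skin median, against 35.5% of all tested genes. In SDLN this held for 0 members and 0.941% of all tested genes. These shares were not split by level. The 12 members were Hdac2, Hdac6, Hdac8, Kat2a, Kat2b, Kdm1b, Kdm4a, Kdm4d, Setd1a, Setd4, Setd6 and Setdb2. The near-empty library was skin 1 for 4 of them, skin 2 for 2, skin 3 for 2 and skin 4 for 4, so no single library carried them. Kdm8 was the reverse case, at 33.6, 0.0809, 0.617 and 0.357 CPM in skin 1 to 4, against 15.7, 17.1 and 16.7 CPM in SDLN 1 to 3, with a level in skin 1 alone. Detected members numbered 55, 56, 56 and 53 in skin 1 to 4 and 58 in each SDLN library, and detected genes of all kinds 9690 to 12639 in skin and 13408 to 13845 in SDLN.

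**Figure D5:**
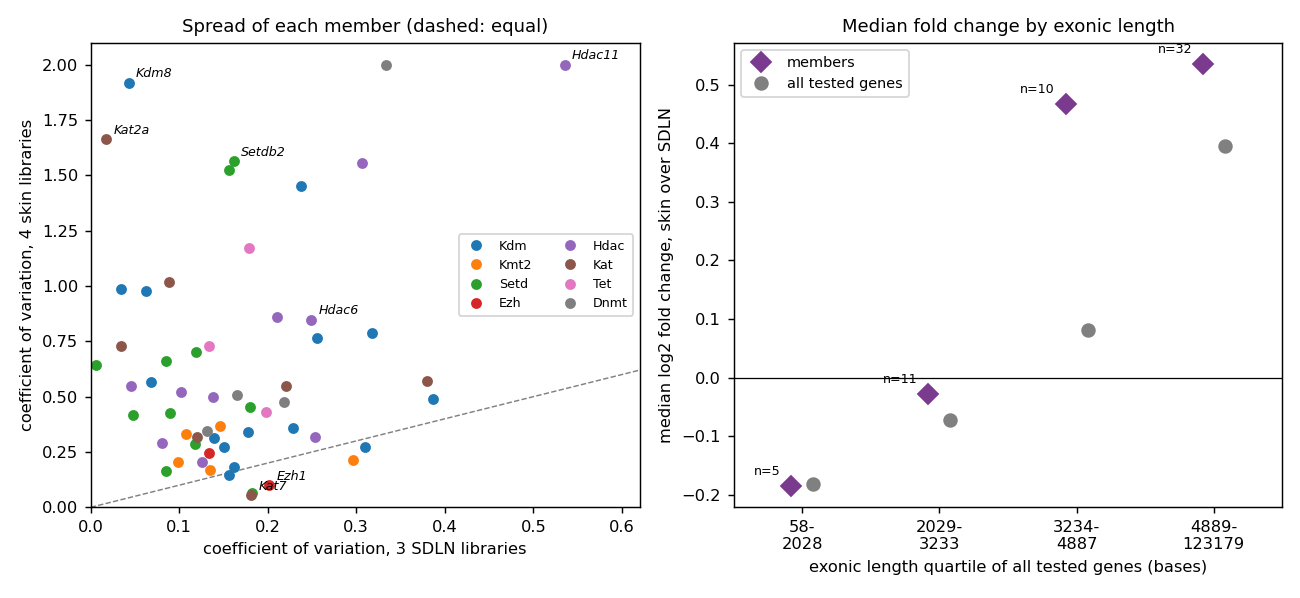
Spread and length. Left, coefficient of variation of each tested member with a skin count, skin (y) against SDLN (x), coloured by class; 51 of 57 lie above the dashed line of equality. Right, median log2 fold change, skin over SDLN, of members (diamonds) and of all tested genes (circles) in quartiles of exonic length; both are lowest in the shortest quartile (-0.19 and -0.18) and highest in the longest (0.54 and 0.40).

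Fold changes went with transcript length across the whole table, and the members are long. Over the tested members the median exonic length was 5032 bases, against 3233 bases over the 10870 tested genes with a length, and 32 of 58 fell in the longest quartile. Over all tested genes the median log2 fold change was -0.18, -0.07, 0.08 and 0.40 from the shortest to the longest quartile, and over the members -0.19, -0.03, 0.47 and 0.54. Called higher were 2.35% of all genes in the shortest quartile and 4.78% in the longest, and called lower 5.30% and 2.06%. The part of length in the members' upward lean was not tested.

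Markers of other cell types moved with the comparison too. The macrophage and dendritic cell markers, 12 of 13 in the table, summed to 733 to 10412 CPM in skin and 344 to 546 CPM in SDLN. Of them 4 were called higher, and Cd207 was at 0 in both sites. Cd74 made up most of the mean sum, 2808 of 4263 CPM in skin and 377 of 427 CPM in SDLN, and was not called (adjusted p = 0.0937). The keratinocyte markers summed to 29.8 to 704 CPM in skin and 4.97 to 6.64 CPM in SDLN, and the fibroblast markers to 2.71 to 1997 CPM in skin and 0.232 to 0.882 CPM in SDLN. Skin 3 stood apart in both: Col3a1, a fibroblast collagen, was at 1453 CPM there and at 0.428 to 1.78 CPM in the other skin libraries, and Krt14, a basal keratinocyte keratin, at 335 CPM there and 0 to 0.0809 CPM in the others. Not every keratinocyte marker followed Krt14. Epcam, called higher, was lowest in skin 3, at 20.9 CPM, against 29.2 to 54.8 CPM in the other skin libraries. Krt10 was called lower, with 1 count over all skin libraries and 107 in SDLN, and passed the count filter through SDLN alone. Tet1 and Dnmt3l were high in skin 3 alone. The T cell markers, 7 of 8 in the table, were lower in sum in skin, at 4406 to 8330 CPM, against 10739 to 13911 CPM in SDLN. The B cell markers summed to 2.99 to 38.4 CPM in skin and 78.6 to 102 CPM in SDLN. Of the endothelial markers, Pecam1, which T cells can express too, was at 16.2 to 62.7 CPM in skin and 388 to 548 CPM in SDLN, while Cdh5 was at 7.76 CPM in skin 3 and 0 elsewhere and Kdr at 0 throughout. The part of these in the enzyme values was not tested, and in such pooled RNA fewer cells of a type and less RNA per cell cannot be told apart. Library totals were 11009609 to 13921238 gene counts in skin and 13123241 to 14785751 in SDLN. Of the genes left out, the Y-linked Kdm5d had at most 1 count per library except SDLN 3, which had 735. By this 1 gene, SDLN 3 alone showed clear expression from male cells, so sex may not be matched between the libraries. The part of sex in the enzyme values, those of the X-linked Hdac6 and Hdac8 among them, was not tested.

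The partners of these enzymes were read from 10 lists of cofactors, readers and further enzymes. Of 139 tested partner genes, 7 rose (5.04%) and 3 fell (2.16%), against 3.28% and 3.96% of all genes, with a median log2 fold change of 0.23. In the Polycomb list, 2 of 20 rose and 1 fell. Aebp2, an accessory subunit of Polycomb repressive complex 2, was at 359, 399, 307 and 356 CPM in skin 1 to 4, against 70.01, 70.4 and 86.03 CPM in SDLN 1 to 3. It stood clear of SDLN in every skin library and was tight within both sites (log2 fold change 2.23, SE 0.25, adjusted p = 0.00470). Cbx2, a chromobox protein of Polycomb repressive complex 1, had 1 count in all over skin and 203 in SDLN (adjusted p = 0.0380). Like Hdac9, it passed the count filter through SDLN alone.

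Among the other histone methyltransferases, 2 of 22 rose and 1 fell. Whsc1 (NSD2), which dimethylates H3K36, was at 185, 199, 101 and 187 CPM in skin 1 to 4, against 26.9, 36.9 and 32.3 CPM in SDLN 1 to 3. Skin 3 was lowest in skin and still above SDLN (log2 fold change 2.39, SE 0.37, adjusted p = 0.0142). Prdm1 (Blimp-1), a transcriptional repressor in effector lymphocytes whose PR domain is related to the SET domain, averaged 268 ± 184 CPM in skin (SD, n = 4) and 32.98 ± 7.41 CPM in SDLN (SD, n = 3) (log2 fold change 3.02, SE 0.57, adjusted p = 0.0327). Suv39h2, an H3K9 methyltransferase, had no count in skin and 76 in SDLN (adjusted p = 0.0380). By counting error alone, it was at least 7.26-fold lower in skin with 3 counts per skin library as the floor. It too passed the filter through SDLN alone, and 269 of 271 such genes were called lower. Among other demethylases 1 of 7 rose: Jmjd1c, a relative of the H3K9 demethylases Kdm3a and Kdm3b, was at 520.3, 438, 439.99 and 418 CPM in skin 1 to 4, against 181, 175 and 178 CPM in SDLN 1 to 3, with the sites far apart and little spread (log2 fold change 1.35, SE 0.21, adjusted p = 0.0159).

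In the list of DNA methylation readers and cofactors 1 of 15 rose, Gadd45b, a stress-induced protein that has been linked to DNA demethylation, at 407 ± 218 CPM in skin (SD, n = 4) and 13.2 ± 3.07 CPM in SDLN (SD, n = 3) (log2 fold change 4.94, SE 0.57, adjusted p = 0.00610). Of 16 acetyl-lysine readers 1 rose, the remodelling subunit Baz1a, at 144 ± 43.5 CPM in skin (SD, n = 4) and 53.01 ± 5.13 CPM in SDLN (SD, n = 3) (log2 fold change 1.44, SE 0.35, adjusted p = 0.0454). Of 9 tested genes of donor and cofactor metabolism 1 fell, Mat2a, which makes the methyl donor S-adenosylmethionine, at 287 ± 20.8 CPM in skin (SD, n = 4) and 531 ± 46.9 CPM in SDLN (SD, n = 3) (log2 fold change -0.89, SE 0.20, adjusted p = 0.0389). In the lists of COMPASS partners (12 tested), other acetyltransferases (10), sirtuins (7) and deacetylase corepressor subunits (21), 0 passed in either direction with edgeR; at an unadjusted p under 0.05 there were 0, 1, 0 and 4 higher and 0 lower in each. Over 20 alternatives, Gadd45b passed in 18, Aebp2 in 16, Jmjd1c and Whsc1 in 14 each, Prdm1 in 13, Mat2a in 9 and Baz1a in 8. Cbx2 and Suv39h2 are named because their counts were small and were chosen after their values were seen, as were the members given beyond the rule for named genes.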

How the data were processed

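RNA of sorted Tregs was sequenced in 7 libraries, 4 from skin and 3 from SDLN. Per the labels' protocols, RNA was column-purified and made into cDNA with a SMARTer ultra-low-input kit. The deposited table holds raw counts per gene symbol. The submitters' processing notes list HTSeq 0.6.1, SAMtools 0.1.19.0, TopHat2 2.0.12 with Bowtie2 2.1.0.0, CASAVA 1.8.2 and build mm10. Which annotation and strand mode were used, and any filter, is not given in the sources used here. Summary rows that name no gene were left out. Of all counts with those rows included, 61.2 to 70.4% were in the row for alignments that are not unique. The row for no feature held 10.0 to 17.1%. The floor of 3 counts equals 0.214 to 0.276 CPM in skin and 0.204 to 0.232 CPM in SDLN.

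Counts were tested with the edgeR 4.0.16 quasi-likelihood test in R 4.3.3 (TMM scaling, minimum count 10, robust estimation, all 7 libraries, two-sided), with Benjamini-Hochberg adjustment over all genes tested and a threshold of 0.05. CPM use TMM-scaled library sizes, and the SE is the log2 fold change divided by the root of the F statistic. For genes with 0 skin counts the fold is a bound at 3 counts per library, and for 1 to 3 counts a ratio with an exact 95% interval; both cover counting error only. Lengths are unions of GENCODE vM21 exons, and promoters come from RefSeq. The procedure was tested on simulated data. Alternatives were other scalings and filters, DESeq2 1.42.0, limma 3.58.1 voom, a replicate block, a stricter threshold and leaving out each library. The genes, lists and tests were chosen with earlier results of these data known. Named genes are the members that passed, the most abundant and the smallest-p member of each class, members with a known T cell role, and up to 2 partners called per list, of which 1 is not reported here; others are described as chosen after their values were seen. Skin and SDLN libraries of the same number did not deviate together.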

Additional observations from a re-analysis of the deposited data

Results flagged for a closer look

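Among 34 sets of 4 skin libraries (the named members and the class sums), 5 had 1 library standing apart from the others by Dixon's 95% criterion (a gap above 0.829 of the range). Hdac9, one of these sets, was at 0 in every skin library and could not be examined. Chance flags about 1 in 20 independent sets, but the sums contain members, so these sets are not independent. Dnmt3aos was at 0.092 CPM in skin 1, which is 1 count, and at 0 in the other skin libraries, where any count is flagged. Kat5 was at 176 CPM in skin 2, and the next skin library was at 45.6 CPM. Kdm2b was at 72.0 CPM in skin 3, and the next was at 132 CPM. The Hdac sum was 1088 CPM in skin 2, and the next was 686 CPM. The Kat sum was 551 CPM in skin 2, and the next was 459 CPM.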

How the results depend on the processing

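With other scalings and without robust estimation the members called stayed at 2 higher and 2 lower, and the gene counts at 336 to 382 higher and 451 to 485 lower. Members called (higher, then lower) were 0 and 0 with no low-count filter, 1 and 0 with a mean of at least 5 CPM, 8 and 1 with DESeq2, 1 and 2 with limma-voom, 7 and 3 with sample weights, 4 and 2 with a variance per group, and 0 and 0 at an adjusted p under 0.01. Genes called (higher, then lower) were 188 and 70 with no filter, 285 and 99 with at least 5 CPM, 923 and 507 with DESeq2, 271 and 729 with limma-voom, 757 and 985 with sample weights, 594 and 987 with a variance per group, and 72 and 16 at an adjusted p under 0.01. With the replicate block, genes called were 32 and 10 in 6 libraries and 44 and 12 in 7, with 0 members; the numbers are shared labels only (same-number correlations 0.067, -0.002 and -0.040). Leaving out 1 library gave 33 to 582 genes higher, 9 to 822 lower, 0 to 3 members higher and 0 to 3 lower; without an SDLN library there were at most 61 higher and 15 lower. The median log2 fold change was 0.12 to 0.53 over members and -0.62 to 0.17 over all tested genes; limma-voom and the replicate block gave 0.12 to 0.17 for members and -0.62 to -0.50 for all genes. Some fold changes near 0 turned sign (log2). With sample weights Dnmt3a was at -0.071, Ezh1 at -0.053, Kmt2d at -0.15 and Kat5 at -0.20. With upper-quartile scaling Ezh1 was at -0.028 and Kmt2d at -0.043. With the replicate block in 6 and 7 libraries Hdac6 was at 0.037 and 0.050, Tet3 at -0.027 and -0.0097 and Kat5 at -0.065 and -0.047. Kat5 was at -0.010 with limma-voom and -0.018 with a variance per group. Leaving out 1 library gave -0.10 to 0.17 for Ezh1 (negative without SDLN 3), -0.15 to 0.28 for Kmt2d (negative without skin 2, at -0.078, or SDLN 3), -0.70 to 0.17 for Hdac6 (positive without skin 4; -3.57 with sample weights, against -0.24), -0.18 to 0.75 for Tet3 (negative without skin 2), -0.53 to 0.12 for Kat6a (positive without skin 2, at 0.11, or SDLN 3) and -0.62 to 0.71 for Kat5 (negative without skin 2). The cause was not tested. With 3 SDLN libraries, and skin libraries that differ widely, low-count members such as Kdm4d were not resolved. Hdac11, with all its skin counts in skin 2, was called lower without that library, against a log2 fold change of 2.40 with it.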
